A study of Mus musculus with 8 samples.

Results

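The calpains and their inhibitor calpastatin were followed in mouse heart RNA across genotype and pressure overload. The members are the 9 genes of the deposited table whose symbol is Capn1, Capn2, Capn3, Capn5, Capn6, Capn7, Capn10, Capns1 or Cast, out of 54532 genes. Of these, 7 were among the 13928 genes that passed the filter on low values, and Capn3 and Capn6 were not. The 8 libraries come from heart tissue of C57BL/6 mice in 4 groups of 2. The groups are wild type after sham surgery (WT sham), wild type after TAC surgery (WT TAC), Piezo1-Cko after sham surgery (Cko sham) and Piezo1-Cko after TAC surgery (Cko TAC). TAC stands for transverse aortic constriction, an operation that narrows the aortic arch and makes the heart pump against a higher pressure, and sham surgery is the same operation without the constriction. Piezo1 is a stretch-activated cation channel that lets calcium into the cell. The labels used here give no age, sex or time after surgery, and name neither the cells nor the exons that the Cko allele removes. Whether the 2 libraries of a group stem from different mice is not stated either, so p-values here measure a spread between libraries that may be technical.

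Calpains are cysteine proteases of the cytosol that calcium switches on. They cut their substrates at a few sites and so alter them, where the proteasome and lysosome break proteins down. The conventional enzymes mu-calpain and m-calpain each pair a catalytic subunit, encoded by Capn1 or Capn2, with the shared small regulatory subunit encoded by Capns1, and calpastatin, encoded by Cast, binds and blocks the calcium-bound enzymes. In the heart, calpains are known for cutting sarcomere and membrane skeleton proteins when calcium is high.

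The libraries held 15574769 to 17313084 reads recovered from the table, of which mitochondrial genes took 17.6% to 24.4%. Levels are FPKM, reads divided by gene length and by library size, here on the authors' scaled library size. Piezo1 itself was at 2.35 and 3.09 FPKM in the WT sham pair, 5.38 and 5.83 in the WT TAC pair, 3.83 and 3.23 in the Cko sham pair and 5.24 and 3.89 in the Cko TAC pair. Under sham surgery both Cko libraries were thus above both WT libraries, against the direction the label names. Under TAC both were below, in that direction. Of all tested genes, 39.6% and 39.8% had libraries that did not overlap in these 2 comparisons. A gene total includes exons outside any deleted part and cells that keep the gene, so it does not check the labels. WT sham replicate 1 and WT TAC replicate 1 stood apart from the other library of their group. For example, summed fibroblast markers were 536 against 308 FPKM in WT sham and 1043 against 559 FPKM in WT TAC. The Cast and substrate results are given with and without these libraries.

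The small subunit gene was by far the most abundant of the 9 per length. Capns1 stood at a median of 127 FPKM over the 8 libraries, Capn2 at 18.3, Capn7 at 9.53, Capn1 at 9.47, Cast at 8.95, Capn10 at 2.25, Capn5 at 0.779, Capn3 at 0.266 and Capn6 at 0.104. Capns1 ranked first and Capn2 second in 8 of 8 libraries. Capn7, Capn1 and Cast exchanged ranks 3 to 5 between libraries, so the order among these 3 neighbours was not fixed beyond their spread, and Capn3 and Capn6 likewise exchanged the last ranks. The listed length is the union of all annotated exons, which weighs on genes with many transcript forms. Cast has 13 transcripts and a listed length of 11470 bases, against 5141 for its longest coding transcript. With the median FPKM recomputed on the length of the longest coding transcript, Cast moved to rank 3, at 20.0 against 12.8 for Capn7 and 9.88 for Capn1, with Capns1 at 197 and Capn2 at 36.0.

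**Figure D1:**
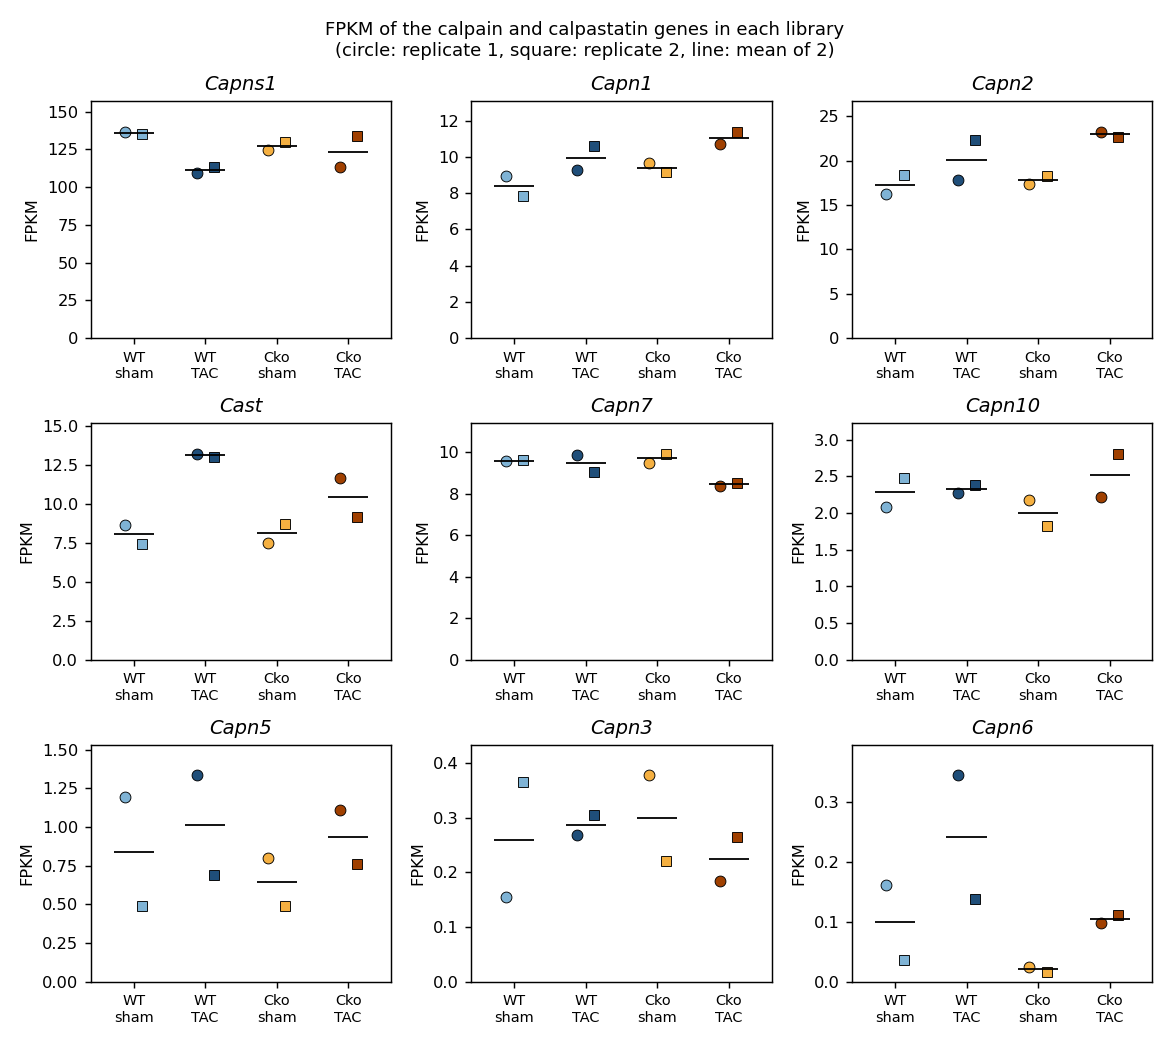
FPKM (vertical axes, each from 0) of the 9 genes in the 4 groups. Circles are replicate 1, squares replicate 2, and lines the mean of 2 libraries. Cast lies at 9.19 to 13.2 FPKM in the 4 TAC libraries and at 7.42 to 8.70 in the 4 sham libraries.

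Cast, the inhibitor, was the member that passed the test after TAC. It stood at 8.68 and 7.42 FPKM in the WT sham pair, 13.2 and 13.0 in the WT TAC pair, 7.52 and 8.70 in the Cko sham pair and 11.7 and 9.19 in the Cko TAC pair. The 2 WT TAC libraries were the highest of the 8, and each of the 4 TAC libraries was above each of the 4 sham libraries. These levels rest on 1208 to 2825 reads per library. In wild type Cast rose 1.60-fold (log2 fold change 0.68, SE 0.156, limma adjusted p = 0.0348). In Piezo1-Cko the log2 fold change was 0.34 (SE 0.156, limma adjusted p = 0.257), which did not pass, although its TAC and sham libraries did not overlap. Averaged over the genotypes, Cast rose 1.42-fold (log2 fold change 0.51, SE 0.110, limma adjusted p = 0.0173). The average combines the same libraries as the comparisons within each genotype and is no separate evidence.

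The rise of Cast in wild type lost its call when any 1 of 6 libraries was left out, with limma adjusted p from 0.0591 to 0.137. It kept the call without either Cko TAC library (0.0287 and 0.0284). The averaged rise lost its call without Cko sham replicate 1 (limma adjusted p = 0.0718) or Cko TAC replicate 1 (0.0510). Without both libraries that stood apart, the log2 fold change of Cast was 0.77 in wild type (limma adjusted p = 0.139) and 0.55 averaged (0.0519). The sign was positive in each TAC comparison under each alternative run.

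Cast lies on chromosome 13 at 74692368 to 74808810 on the minus strand (GRCm38). The deposited value sums all its exons, so it cannot separate transcripts that begin at different starts, of which RefSeq lists 4 on GRCm38.p6. The 250 bases upstream of starts 2, 3 and 4 are shown because the Cast total sums transcripts from all of these starts. The window of start 1 is not shown, since 50 of its bases lie in an annotated exon of the gene. Capitals mark matches, on either strand, to the GC box GGGCGG, the AP-1 site TGANTCA, the CCAAT box CCAAT and the TATA box TATAAA. The windows lie at chr13:74807961-74808210, chr13:74770737-74770986 and chr13:74734262-74734511, and each is written 5′ to 3′ along the gene's strand.
Cast start 2: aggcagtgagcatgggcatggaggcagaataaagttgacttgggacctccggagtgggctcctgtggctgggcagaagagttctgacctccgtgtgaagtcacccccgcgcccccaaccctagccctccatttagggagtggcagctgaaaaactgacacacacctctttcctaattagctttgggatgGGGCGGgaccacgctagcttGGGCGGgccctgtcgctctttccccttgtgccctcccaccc
Cast start 3: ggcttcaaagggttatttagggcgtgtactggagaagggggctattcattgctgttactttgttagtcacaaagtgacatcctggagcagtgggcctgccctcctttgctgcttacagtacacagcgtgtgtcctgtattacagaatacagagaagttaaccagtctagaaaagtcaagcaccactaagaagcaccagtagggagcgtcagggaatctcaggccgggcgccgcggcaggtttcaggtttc
Cast start 4: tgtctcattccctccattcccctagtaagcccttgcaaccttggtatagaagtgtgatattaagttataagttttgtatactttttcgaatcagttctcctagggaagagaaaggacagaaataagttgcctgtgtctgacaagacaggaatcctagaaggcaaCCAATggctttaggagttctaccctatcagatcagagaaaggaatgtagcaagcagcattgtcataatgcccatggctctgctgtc

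The window of start 2 has 2 GC boxes and a GC content of 60%, that of start 3 has no match to any of the 4 motifs, and that of start 4 has 1 CCAAT box. Over 32817 windows of the same length in RefSeq, a GC box occurs in 32.7%, a CCAAT box in 33.8%, a TATA box in 12.4% and an AP-1 site in 6.75%. A match describes letters and not a bound factor, and which start was used in these hearts was not measured. Erap1, an aminopeptidase gene, stood at 4.19 and 3.29 FPKM in the WT sham pair and 4.75 and 5.74 in the WT TAC pair. It was at 4.33 and 4.67 in the Cko sham pair and 5.44 and 4.59 in the Cko TAC pair. Its WT TAC libraries were thus above WT sham, as for Cast, while its Cko libraries overlapped. Cast shares 834 exon bases with Erap1, which lies on the opposite strand. Whether counting used strand is not given in the sources used here, so reads over those bases cannot be told apart. The same limit holds for other members that share exon bases with a gene on the opposite strand. Capn2 shares 1717 with Gm37885, Capn10 639 with 9430060I03Rik and Capn1 394 with Gm10814. Capns1 shares 202 with Gm26810 and Capn7 116 with Sh3bp5.

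Capns1, the small regulatory subunit, did not pass the test in any comparison. Its gene lies on chromosome 7 at 30186936 to 30198811, minus strand. It stood at 137 and 135 FPKM in the WT sham pair, 109 and 113 in the WT TAC pair, 124 and 130 in the Cko sham pair and 113 and 134 in the Cko TAC pair. Both WT TAC libraries were below both WT sham libraries, while the Cko libraries overlapped between surgeries. The log2 fold change of TAC against sham was -0.29 in wild type (SE 0.133, limma adjusted p = 0.171), -0.05 in Piezo1-Cko (0.873) and -0.17 averaged (0.222). The sign of the last 2 depends on the scaling: with the total of reads as the library size they were 0.17 and 0.05.

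Capn2, the catalytic subunit of m-calpain, is encoded on chromosome 1 at 182467260 to 182517608, minus strand. It stood at 16.2 and 18.4 FPKM in the WT sham pair, 17.8 and 22.3 in the WT TAC pair, 17.4 and 18.2 in the Cko sham pair and 23.3 and 22.7 in the Cko TAC pair. Both Cko TAC libraries were above all 4 sham libraries, and the WT TAC libraries overlapped WT sham. Its log2 fold change was 0.20 in wild type (limma adjusted p = 0.350), 0.36 in Piezo1-Cko (0.196) and 0.28 averaged (SE 0.10, 0.0773), and none passed.

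Capn1, the catalytic subunit of mu-calpain, is listed by the deposited table on chromosome 19 at 5988546 to 6015825, minus strand. It stood at 8.98 and 7.84 FPKM in the WT sham pair, 9.27 and 10.6 in the WT TAC pair, 9.68 and 9.15 in the Cko sham pair and 10.7 and 11.4 in the Cko TAC pair. TAC was above sham within each genotype, by little in both. Its log2 fold change was 0.23 in wild type (limma adjusted p = 0.254), 0.22 in Piezo1-Cko (0.364) and 0.22 averaged (SE 0.0916, 0.109), and none passed on the deposited scale. When FPKM were recomputed on the total of reads, Capn1 and Capn2 did pass in the average, with log2 fold changes of 0.43 (limma adjusted p = 0.0112) and 0.50 (0.0114). That scaling moved the median of all genes by 0.20 in the same direction.

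**Figure D2:**
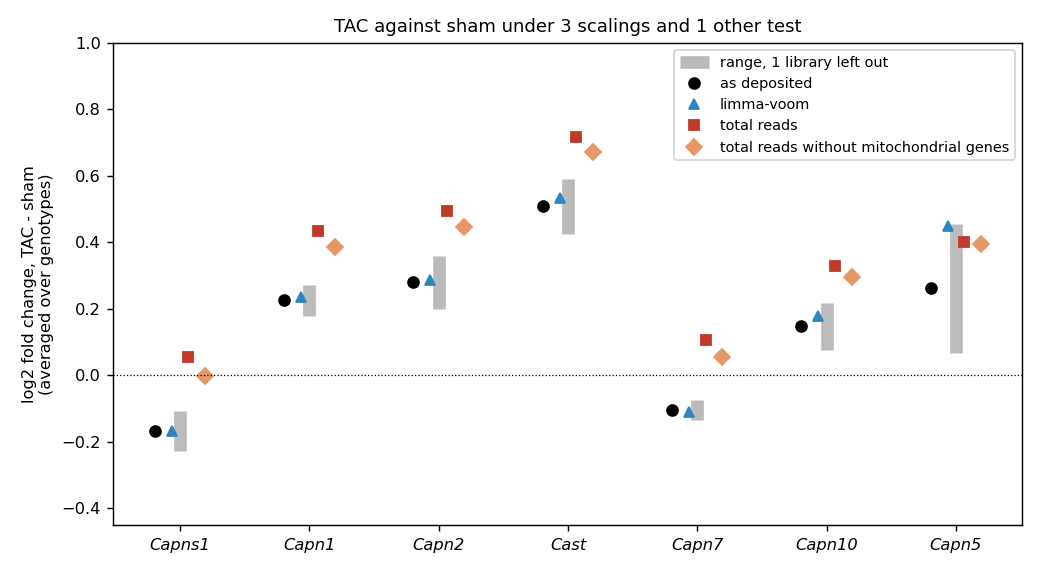
Log2 fold change of TAC against sham averaged over the genotypes (vertical axis) for the 7 tested genes under the deposited scale, limma-voom and 2 scalings by total reads. Grey bars span the values with 1 library left out. Cast is above 0 throughout, from 0.42 to 0.72, while Capns1 and Capn7 cross 0 between scalings.

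Ratios within a library do not depend on that scaling. The ratio of Capns1 to the sum of Capn1 and Capn2, in FPKM, was 5.43 and 5.16 in the WT sham pair, 4.04 and 3.44 in the WT TAC pair, 4.60 and 4.75 in the Cko sham pair and 3.34 and 3.93 in the Cko TAC pair. Each TAC library was below each sham library, so small subunit RNA was lower relative to catalytic subunit RNA in the 4 TAC libraries. The ratio of Cast to the same sum was 0.345 and 0.283 in the WT sham pair, 0.489 and 0.395 in the WT TAC pair, 0.278 and 0.318 in the Cko sham pair and 0.344 and 0.270 in the Cko TAC pair. Wild-type TAC was above wild-type sham in this ratio, and the Cko libraries overlapped. Capn2 was 1.8 to 2.3 times Capn1, with all groups overlapping. These ratios were chosen after values had been seen and carry no test.

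**Figure D3:**
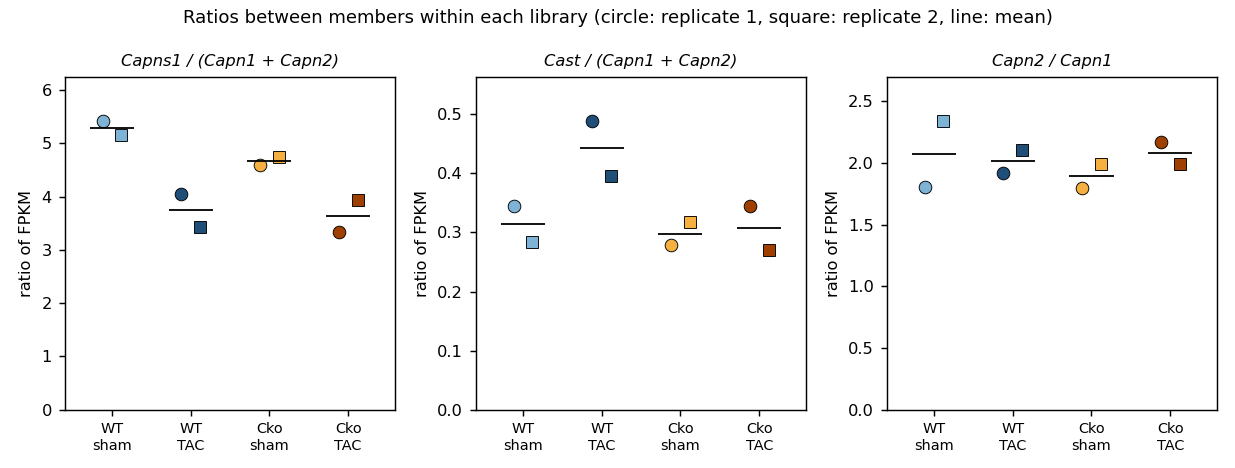
Within-library FPKM ratios in the 4 groups, with circles for replicate 1, squares for replicate 2 and lines for the mean of 2 libraries. The ratio of Capns1 to Capn1 plus Capn2 is 4.60 to 5.43 in the sham libraries and 3.34 to 4.04 in the TAC libraries.

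The other calpains act outside the conventional pair, and none passed a comparison. Capn7, a calpain with microtubule-interacting domains linked to endosomal sorting, stood at 9.57 and 9.60 FPKM in the WT sham pair, 9.87 and 9.06 in the WT TAC pair, 9.49 and 9.93 in the Cko sham pair and 8.35 and 8.54 in the Cko TAC pair. The 2 Cko TAC libraries were the lowest of the 8, with a log2 fold change against Cko sham of -0.19 (SE 0.113, limma adjusted p = 0.370), whose sign turns to 0.01 on the total of reads. In wild type the value was -0.02, and averaged it was -0.10. Capn10, known from studies of type 2 diabetes risk, stood at 1.82 to 2.81 FPKM, with its highest value in Cko TAC and a log2 fold change of 0.27 there (limma adjusted p = 0.390), against 0.03 in wild type and 0.15 averaged. Capn5 stood at 0.488 to 1.33 FPKM, and each group overlapped each other group, with log2 fold changes of TAC of 0.19 in wild type, 0.33 in Piezo1-Cko and 0.26 averaged.

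Capn3 and Capn6 were near the limit of these libraries. Capn3, the calpain of skeletal muscle whose loss causes a limb-girdle muscular dystrophy, had 11 to 29 reads per library and 0.154 to 0.377 FPKM. Its TAC and sham libraries overlapped in each genotype, while both WT TAC libraries (0.268 and 0.305 FPKM) were above both Cko TAC libraries (0.184 and 0.265). Its gene shares 386 exon bases with Ganc on the same strand. Capn6, which lacks the catalytic cysteine, had 2 to 50 reads, with 4 and 18 in the WT sham pair, 19 and 50 in the WT TAC pair, 2 and 3 in the Cko sham pair and 14 and 15 in the Cko TAC pair. In FPKM these pairs were 0.0362 and 0.162, 0.138 and 0.345, 0.0168 and 0.0251, and 0.0974 and 0.111, in the same order. Its WT TAC libraries thus overlapped WT sham once library size was taken into account, while its Cko pairs did not overlap. Without the filter on low values neither gene passed a comparison. The averaged log2 fold change of TAC was then 0.26 for Capn6 (limma adjusted p = 0.307) and -0.04 for Capn3 (0.897). In wild type it was 0.30 for Capn6 and 0.06 for Capn3, and in Piezo1-Cko 0.21 and -0.14. Between genotypes, Capn6 differed by -0.19 under sham and -0.28 under TAC, and Capn3 by 0.08 and -0.12, with interactions of -0.09 and -0.20. Counting error alone is large at such numbers.

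TAC against sham in wild type thus called 1 of the 7 tested members, against 13.2% of all tested genes. In that comparison Capn1 and Cast were higher and Capns1 lower with no overlap between libraries, 3 of 7 against 62.2% of all genes. In Piezo1-Cko limma called 0 of 7, against 1.49% of all genes. There 1 member, Capn2, had an unadjusted p under 0.05, and limma-voom called 0 as well. Capn1, Capn2, Capn10 and Cast were higher and Capn7 lower with no overlap, 5 of 7 against 56.4%. Averaged over genotypes 1 of 7 was called, against 25.4%, and the libraries of 1 of 7 did not overlap, against 27.7%. Where the count was 0 or 1 of 7, 1 gene more or fewer sets the order against all genes. With only 7 members, none of these counts is a result about the members as a set. The median log2 fold change of the 7 was 0.19 in wild type, 0.27 in Piezo1-Cko and 0.22 averaged, against 0.01, -0.0009 and 0.01 for all tested genes.

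**Figure D4:**
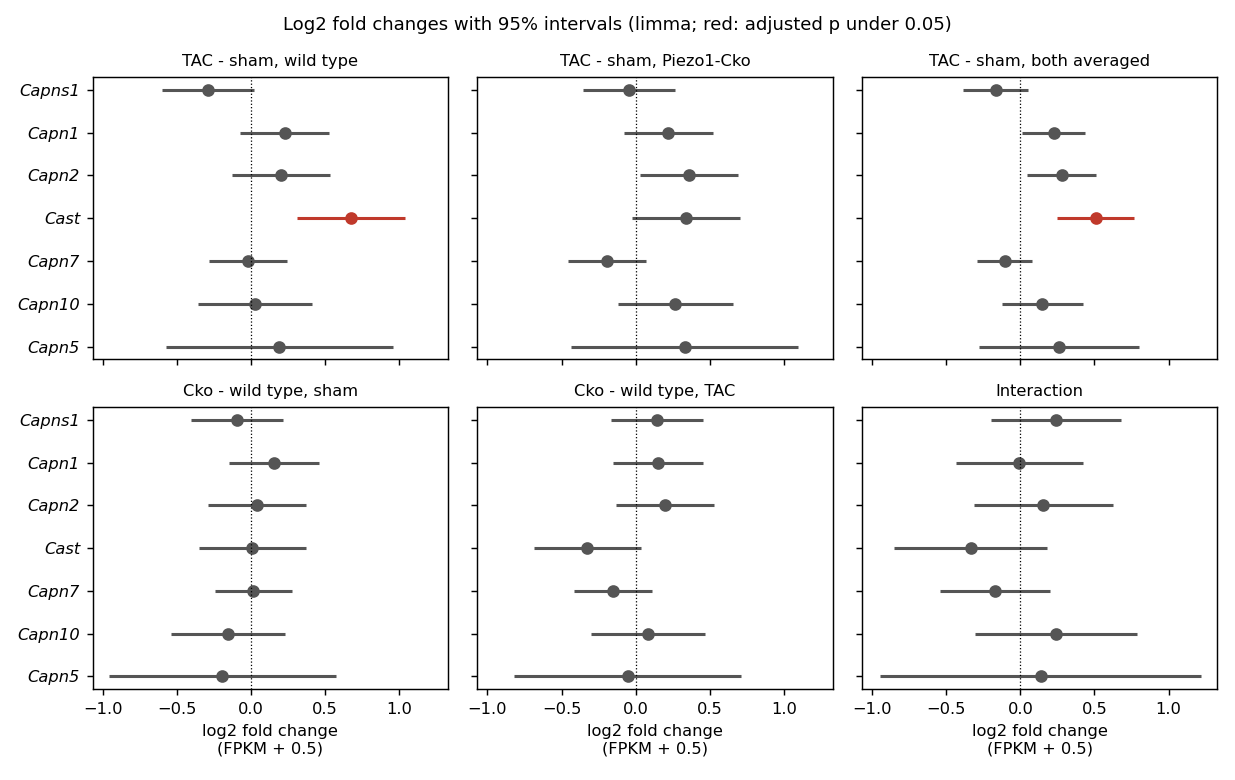
Log2 fold changes (horizontal axes, of FPKM + 0.5) with 95% intervals from limma for the 7 tested genes in 6 comparisons. Red marks an adjusted p under 0.05, which Cast reaches in wild type (0.68) and in the average (0.51).

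No member passed between the genotypes. Under sham surgery limma called 0 of 7 members, against 0.0215% of all genes, with 0 at an unadjusted p under 0.05 and 0 by limma-voom. Capn1 was higher and Capns1 lower in Cko sham with no overlap, 2 of 7 against 39.6%, and their log2 differences were 0.16 (limma adjusted p = 0.868) and -0.10 (0.937). Cast differed by 0.01, with a 95% interval from -0.35 to 0.37. Capn2 differed by 0.04, Capn7 by 0.02, Capn10 by -0.16 and Capn5 by -0.19. Beside these values, summed endothelial markers were 486 to 733 FPKM in WT sham and 877 to 945 in Cko sham. Of these 10 markers, 10 were higher in Cko sham (median log2 difference 0.56), 0 passed by limma or limma-voom, and 7 had an unadjusted p under 0.05. The part of this shift in the members' values was not tested. Under TAC limma called 0 of 7, against 0% of all genes, with 0 members at an unadjusted p under 0.05 and 0 by limma-voom. Over all genes 1269 had an unadjusted p under 0.05 in that comparison, and limma-voom called 0. Capn1, Capn2 and Capns1 were higher and Capn7 and Cast lower in Cko TAC with no overlap, 5 of 7 against 39.8%. The log2 differences were 0.15 for Capn1, 0.20 for Capn2, 0.15 for Capns1 and -0.16 for Capn7, with 0.08 for Capn10 and -0.05 for Capn5.

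The Cast difference under TAC was -0.33 on the log2 scale (SE 0.156, 95% interval from -0.69 to 0.04, limma adjusted p = 0.574). The interval leaves room both for no difference and for a level in Cko TAC well below WT TAC. The interaction (how much the TAC response in Piezo1-Cko exceeded that in wild type) was -0.34 for Cast (SE 0.221, limma adjusted p = 0.911), so its response passed in wild type without being shown to differ from Piezo1-Cko. For the interaction limma called 0 of 7 members, against 0.00718% of all genes, with 0 at an unadjusted p under 0.05 and 0 by limma-voom. Capns1 (0.24) and Capn10 (0.24) had the largest positive interaction values and Cast the most negative, with 0.16 for Capn2, 0.14 for Capn5, -0.01 for Capn1 and -0.17 for Capn7. On simulated data the test found 27.4% of 2-fold interactions, so most responses that differed 2-fold were missed there. The simulation gave all genes the same spread between libraries, changed genes in WT TAC only and held no library that stood apart. In the real data the SE of the interaction ran from 0.159 for Capn7 to 0.465 for Capn5, so that share does not carry over to each member.

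Proteins that calpains are known to cut were taken as a list of 25 genes, all of which passed the filter. In wild type 4 of them rose after TAC, where 5.57% of all genes did, and 2 fell, where 7.65% did. Vinculin (Vcl, 1.82 on the log2 scale), beta-catenin (Ctnnb1, 0.88), integrin beta 1 (Itgb1, 0.79) and talin (Tln1, 0.45) rose, all of them adhesion proteins. Tln1 was close to the threshold (limma adjusted p = 0.0490), and the adhesion genes Cdh2 (0.23) and Dsp (0.27) of the same list did not pass. Cardiac troponin T (Tnnt2) and troponin I (Tnni3), which belong to the thin filament, fell by 1.01 and 1.56. The list's median was 0.13, against 0.01 for all genes. In Piezo1-Cko limma called 0 of the 25, with 7 at an unadjusted p under 0.05 and 0 by limma-voom. Vcl had a log2 fold change of 0.55 there, Tnnt2 -0.73 and Tnni3 -1.04, and limma and limma-voom called 0 of the 25 for the interaction, with 3 at an unadjusted p under 0.05. Averaged over genotypes, 7 rose (against 11.9% of all genes) and 2 fell (13.5%), with filamin C (Flnc, 1.00), focal adhesion kinase (Ptk2, 0.31) and protein kinase C alpha (Prkca, 0.35) beside the 4 named above. Of the genes not called, Slc8a1 (1.54), Cacna1c (-0.33) and Jph2 (-0.26) had the smallest unadjusted p in the average. Slc8a1 was at 2.47 in wild type, above Vcl, without passing (SE 0.685, limma adjusted p = 0.0544), and at 0.62 in Piezo1-Cko.

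Without both libraries that stood apart, 0 of the 25 were called in wild type, and 3 rose and 2 fell in the average. In wild type 7 rose by limma-voom and 8 with the total of reads as the library size. RNA levels of substrates do not measure their cleavage. The troponins also belong to the list of cardiomyocyte markers described next.

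**Figure D5:**
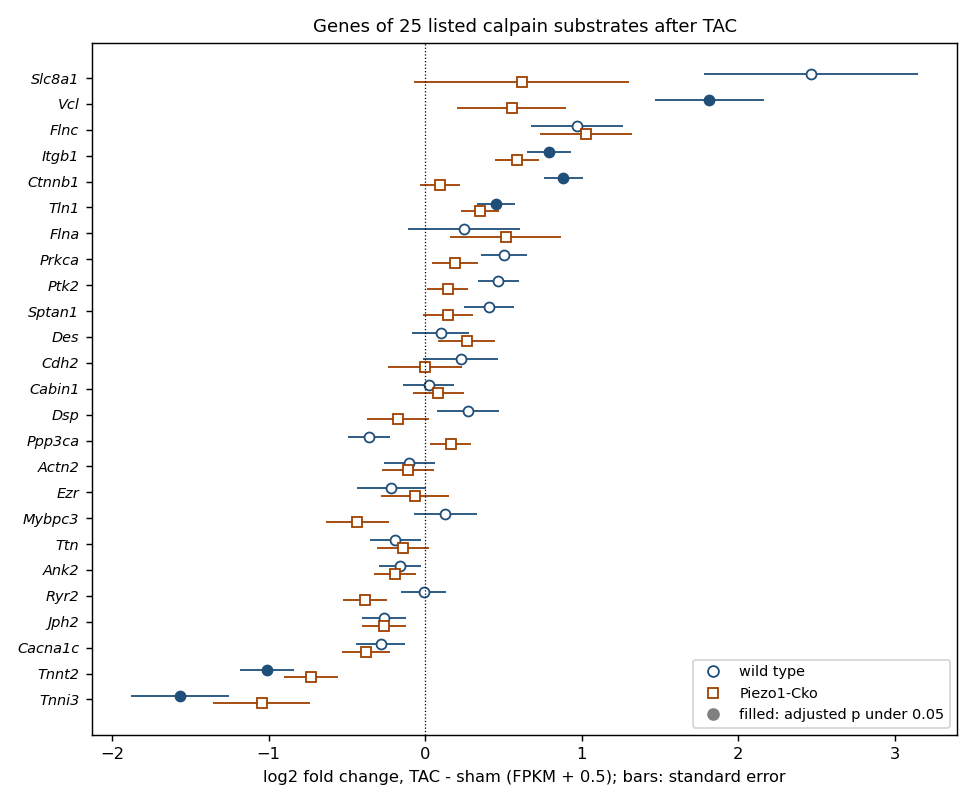
Log2 fold change of TAC against sham, with SE bars, for 25 genes whose proteins calpains cut, in wild type (circles) and Piezo1-Cko (squares). Filled symbols passed at an adjusted p of 0.05, from Vcl at 1.82 to Tnni3 at -1.56 in wild type.

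Of 9 further family genes, 8 were matched in the table (Capn14 was not), and 3 passed the filter. These were Capn15 (median 2.31 FPKM, above Capn10), Capn11 (0.779) and Capn12 (0.430), and 0 of these passed a TAC comparison by limma or limma-voom, with 1 (Capn12, -0.45 averaged) at an unadjusted p under 0.05. Capn13 was listed at 0 in all 8 libraries, and Capns2, a second small subunit gene, had at most 4 reads. Among other proteolytic systems, 1 of 14 cathepsins and cystatins rose in wild type (Ctss, a lysosomal protease of immune cells, 1.26), where 5.57% of all genes did. In Piezo1-Cko limma called 0 of the 14, against 1.49% of all genes, with 6 at an unadjusted p under 0.05, and limma-voom called 1. Ctss was at 1.52 there (limma adjusted p = 0.0589), so its rise was not particular to wild type. In the average 4 rose (Ctss, Ctsc, Ctsz and Ctsb), against 11.9% of all genes. Of 15 muscle ubiquitin ligases and proteasome genes, 4 fell in wild type (Psmb5, Psmb6, Psme1 and Psme2), against 7.65% of all genes. In the average 4 fell (Trim54, Psmb5, Psmb6 and Psme1) and Psmd11 rose, against 13.5% and 11.9%. That balance turned with the total of reads as the library size, where 2 fell and 3 rose, and without both libraries that stood apart 1 fell and 1 rose. In wild type, the total of reads as the library size gave other counts: 3 cathepsin and cystatin genes rose and 1 ubiquitin and proteasome gene fell.

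Markers of cell types moved with TAC beside these results. Summed cardiomyocyte markers were 23964 to 27456 FPKM in the sham libraries and 14455 to 18659 in the TAC libraries. In the average 7 of 10 fell (Myh6, Tnnt2, Tnni3, Myl2, Myl3, Atp2a2 and Pln), against 13.5% of all genes. Summed macrophage markers were 442 to 510 FPKM in sham and 674 to 1058 in TAC. In the average 10 of 10 rose (Cd68, Adgre1, Csf1r, C1qa, C1qb, C1qc, Mrc1, Cx3cr1, Lyz2 and Fcgr1), against 11.9% of all genes. Summed fibroblast markers were 308 to 536 FPKM in sham and 552 to 1043 in TAC. In the average 6 of 10 rose (Col1a1, Col1a2, Col3a1, Lum, Postn and Fbln2), against 11.9% of all genes. Not called were Pdgfra (0.29), Tcf21 (0.28), Dcn (-0.11) and Dpt (-0.39). Without both libraries that stood apart, 4 cardiomyocyte markers fell, 5 macrophage markers rose and 6 fibroblast markers rose in the average. Endothelial markers had 0 of 10 called in the average (limma and limma-voom), with 2 at an unadjusted p under 0.05 and 2 called higher on the total of reads. Of 10 mural and smooth muscle markers 1 rose (Pdgfrb) and 1 fell (Abcc9) in the average, against 11.9% and 13.5% of all genes. In bulk tissue, fewer cells of a type and less RNA per cell cannot be told apart, and the part these shifts have in the Cast result was not tested.

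Markers of skeletal muscle, mesothelium and epicardium, lymphocytes and plasma cells, and atrium were low or variable. Skeletal muscle markers summed to 4.55 to 13.3 FPKM with Myh4 and Tnnc2 at 0, and mesothelial and epicardial markers to 1.03 to 3.32. Lymphocyte and plasma cell markers summed to 7.35 to 36.3 FPKM. In these 3 lists limma called no tested gene in a TAC comparison, out of 5, 1 and 4 tested, with 1, 0 and 0 at an unadjusted p under 0.05 in the average. limma-voom called 1 lower skeletal muscle marker in the average. Atrial markers summed to 114 to 610 FPKM in sham and 523 to 1860 in TAC, with Bmp10 at 0, Nppa raised (2.87 averaged) and Stard10 lowered (-1.33 averaged). Both upper ends came from the libraries that stood apart. WT sham replicate 1 was at 610 against 130 in replicate 2, and WT TAC replicate 1 at 1860 against 539. Only 3 of the 6 atrial genes were tested. In the average Nppa rose, Stard10 fell and the other was not called, with 1 of 3 positive and a median of -1.11. In Piezo1-Cko 2 of 3 were positive, with a median of 0.26. The higher sum after TAC is thus not a rise of the listed atrial genes together.

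Across the 8 libraries, the genes whose log2 level most resembled that of Cast were Atp6v1b2, Tnpo1 and Ergic1 (Pearson r of 0.99 each, of 9823 genes compared). For Capn2 they were Mt2 (0.99), Mlkl (0.98) and Pgm1 (0.97), for Capn1 Ola1, Ralgds and Zswim6 (0.97 each), and for Capns1 Gadd45gip1, Zfp386 and Zfp637 (0.97 each). For Capn7 they were Mkrn2, Rassf3 and D3Ertd751e (0.93 to 0.96), for Capn5 Hgsnat, Vkorc1l1 and Mfsd12 (0.92 to 0.98), and for Capn10 Hdac6, Bud13 and Scamp5 (0.87 to 0.88). Among the members, Capn2 followed Capn1 (r of 0.76) and ran against Capn7 (-0.87), and Cast ran against Capns1 (-0.86). These are descriptions over 8 libraries that share their groups and scaling.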

How the data were processed

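Total RNA was taken with Trizol and libraries were built with a NEBNext Ultra kit, per the labels. The submitters' processing notes list the builds mm10 and mm8, and featureCounts 1.5.0-p3, Bowtie 0.12.2 and CASAVA 1.8, without their roles. The authors deposited 1 table named as counts, whose values are FPKM. Multiplied by the listed gene length and divided by a unit fitted for each library, 100% of values came out as whole reads (tolerance 0.01). Those reads were used for depth and limma-voom. Genes with at least 0.5 FPKM and 10 reads in at least 2 libraries were tested with limma 3.58.1 (R 4.3.3) on log2(FPKM + 0.5), with 1 term per group over 8 libraries and intensity-trended, robust moderation. A fold change on that scale understates changes of low genes. Adjusted p-values are Benjamini-Hochberg over 13928 genes, two-sided, threshold 0.05. The rule for named genes takes each member in each comparison, list genes that passed, and the 3 genes most like each member. It also takes up to 3 further genes of each list with the smallest unadjusted p in the averaged TAC comparison, which the text does not give for every list. The text gives list genes for the TAC comparisons. The members, lists and tests were chosen with earlier results of these data known. The simulated data held 200 changed genes per draw, in equal parts 2-fold and 4-fold. In wild type 78.6% of the 2-fold and 100% of the 4-fold changes were found, with 18.4 unchanged genes called per draw. The share of false calls in that simulation was thus above the 0.05 that the threshold names. Of the 9 members, 8 match GENCODE M21 coordinates, and 8 of 9 have RefSeq promoter entries. Alternatives were other pseudocounts, no filter, total-read scalings, limma-voom, fewer libraries and a replicate block. A further list of protease genes is not reported here.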

Additional observations from a re-analysis of the deposited data

How the results depend on the processing

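Depth limits the low members: Capn3 and Capn6 rest on 2 to 50 reads a library. With 2 libraries a group, counts of called genes moved widely when 1 library was left out: 74 to 2120 for TAC in wild type, 0 to 387 in Piezo1-Cko, 1332 to 3669 averaged, 1 to 4 for the genotypes under sham, 0 to 21 under TAC and 1 to 3 for the interaction. An arm left with 1 library is assumed to vary like the other groups. Calpain and calpastatin genes called were then 0 to 1 in wild type and 0 to 1 averaged, and 0 elsewhere. The lowest counts came without WT TAC replicate 1 in wild type and without Cko sham replicate 1 in Piezo1-Cko and the average. Where a call or count changed, the cause was not tested, apart from fewer libraries or more genes tested.

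With no filter, 247 genes were called in wild type (0 members, Cast at an adjusted p of 0.0862), 0 in Piezo1-Cko, 1927 averaged, 1 under sham and 2 for the interaction. With only the 4 libraries compared, the counts were 365 in wild type (0 members, Cast at 0.0649), 466 in Piezo1-Cko and 1 under TAC. Without both libraries that stood apart, they were 1 in wild type (0 members), 423 in Piezo1-Cko, 1851 averaged (0 members) and 1 under TAC. limma-voom called 382 genes in Piezo1-Cko. Scaled to total reads, 2 members were called in wild type (Cast and Capn1, Capn1 at an adjusted p of 0.0469) and 3 averaged, beside 2371 and 4654 of all genes, with 513 genes in Piezo1-Cko. Without mitochondrial genes in the total, 3 members were called averaged, beside 4315 of all genes, and 440 genes in Piezo1-Cko. Calls that were higher made up 42.1% in wild type, 63.5% in Piezo1-Cko and 46.8% averaged on the deposited scale, and 76.3%, 86.4% and 79.2% on total reads.

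Signs turned as follows, all for values that did not pass. On total reads, and on total reads without mitochondrial genes, Capn7 was 0.20 and 0.17 in wild type, 0.11 and 0.0543 averaged, and Capns1 was 0.17 and 0.10 in Piezo1-Cko. On total reads alone, Capn7 was 0.0105 in Piezo1-Cko and Capns1 0.0534 averaged. Without both libraries that stood apart, Capn10 was -0.0470 in wild type, Capn2 -0.0450 and Capn5 0.20 between genotypes under sham, and Capn5 0.26 under TAC. With 1 library left out, ranges that crossed 0 were, in wild type, Capn5 -0.20 to 0.58, Capn7 -0.0770 to 0.0404 and Capn10 -0.0749 to 0.13, and in Piezo1-Cko, Capns1 -0.16 to 0.0724. Between genotypes under sham they were Capn2 -0.0450 to 0.13, Capn5 -0.58 to 0.20, Capn7 -0.0134 to 0.0480 and Cast -0.10 to 0.12. Under TAC they were Capn5 -0.37 to 0.26 and Capn10 -0.0567 to 0.23. For the interaction they were Capn1 -0.10 to 0.0856, Capn2 -0.0042 to 0.32 and Capn5 -0.25 to 0.53.

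The labels name no pairing for the replicate numbers. Same-numbered deviations correlated at 0.0256 to 0.248 over 6 pairs of groups, all positive and highest for WT sham with WT TAC. What same-numbered libraries share was not tested. With the replicate number as a block, 2187 genes were called in wild type, 236 in Piezo1-Cko, 3748 averaged, 2 under sham, 0 under TAC and 1 for the interaction, and Cast stayed called in wild type (adjusted p = 0.0346) and averaged (0.0193).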

Other observations

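Capn5, a calpain without the calmodulin-like calcium-binding domain, was higher in replicate 1 than in replicate 2 in each of the 4 groups: 1.19 against 0.488 FPKM in the WT sham pair, 1.33 against 0.692 in the WT TAC pair, 0.797 against 0.488 in the Cko sham pair and 1.11 against 0.760 in the Cko TAC pair. Of all tested genes, 7.72% had replicate 1 above replicate 2 in all 4 groups and 9.08% the reverse. The labels tie the replicate numbers to no batch or animal.

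Capn11, a calpain known from testis, was uneven between libraries of the same group. It had 0 and 60 reads in the WT sham pair, 53 and 0 in the WT TAC pair, 125 and 21 in the Cko sham pair and 0 and 64 in the Cko TAC pair, so 3 of the 4 groups held a library with no read beside one with at least 53.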
